A study of Mus musculus with 2 samples.

Results

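Smad1, Smad2, Smad3, Smad4, Smad5, Smad6 and Smad7 and the transcription regulators Id1, Id2 and Id3 were followed in mouse primary chondrocytes before and after mechanical loading. These 10 members are taken by name and make up 10 of the 20656 genes that could be named on the arrays. Smad9 and Id4, which belong to the same families, are given beside them and are not counted among the members. A gene was read from each probe that carries one of its RefSeq transcripts, and the brightest probe represents the gene.

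The chondrocytes came from C57BL/6J mice aged 6 days, with no genetic change or added agent given in the labels. They were kept for 48 h in silicon chambers coated with fibronectin and were then stretched cyclically by 10% at 0.5 Hz for 30 min. RNA was taken before the loading (n = 1 array) and 24 h after it (n = 1 array), and whether the cells of several mice were pooled is not given in the sources used here. The comparison asks which transcripts differ 24 h after the strain, but an unloaded culture of the same age was not analysed here, so loading and the added 24 h of culture cannot be told apart.

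Each value is the intensity of a spot, that is its brightness after the scanner software took off the background. Differences are log2 ratios of 24 h after to before loading, with each array set relative to its own 75th percentile, which was 466.4 before and 466.2 after. The error given with a ratio combines the software's errors of the spots on both arrays and covers within-array error only. It was nearly constant, from 0.204 to 0.207 for the brightest probes of the members, so a limit of 2 errors acted much like a fixed fold limit. Over 268 detected probes with 8 or more spots, the median SD of the log2 ratio between spots was 0.087. Because each time point has a single array, no difference has a replicate check and none was tested. The precision is limited by the number of arrays. Each array has 59305 spots that are not controls. The share of them well above background was 59.1% on the array from before loading and 57.7% on the other, and 0 were saturated. A total of 14227 genes had a brightest probe well above background on both arrays and are called detected. Their median log2 ratio was -0.01 with an SD of 0.38 across genes, and their median within-array error was 0.20.

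The label of the cells was checked against cartilage genes. All 11 chondrocyte markers were detected, and their summed intensity was 1329860 before loading and 1322340 at 24 h. Col2a1, which encodes the main collagen of cartilage, was the brightest of them. The median log2 ratio of the 11 markers was 0.08, from -0.82 for Col11a1, a minor fibrillar collagen chain, and -0.22 for Matn3 to 0.40 for the link protein gene Hapln1 and 0.56 for Matn1.

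Smad proteins carry the signal of TGF-β and bone morphogenetic protein (BMP) receptors from the membrane to the nucleus. Receptors phosphorylate the receptor-activated Smads, which join the common Smad4 and bind DNA, while the inhibitory Smads act back on receptors and Smads. Id proteins are helix-loop-helix proteins without a DNA-binding region that hold E proteins away from DNA, and their genes are known targets of BMP signalling, a pathway that cartilage formation needs.

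All 10 members were detected, and so were all of their 14 probes. None of the members was past 2-fold in either direction: 0 were higher and 0 lower, where the shares of all detected genes past 2-fold were 0.668% on the higher side and 1.83% on the lower side. At 1.5-fold, Id3 was the 1 member higher (3.66% of all detected genes) and Smad7 the 1 member lower (5.84%), a call that Smad7 lost with normexp background correction, at -0.57. With the second brightest probe Smad3 was past 1.5-fold lower as well. More than 2 within-array errors from 0 lay 1 member on the higher side, Id3 (7.64% of all detected genes), and 2 on the lower side, Smad3 and Smad7 (9.4%). Smad3 was within 2 errors, which left 1 on the lower side, with median scaling (-0.34), spike-in scaling (-0.33) and normexp (-0.39). With 10 members these counts are too small to set the members apart from all genes. The median log2 ratio of the members was -0.09 beside -0.01 for all detected genes, with 4 members above 0 and 6 below on the brightest probes. The median of the members was 0.0081 when arrays were scaled to their medians and 0.026 when scaled to spike-in probes. The median of all detected genes was then 0.084 and 0.10, since these scalings move all genes alike. The sign of the members' median thus depends on the scaling, but it lay below that of all detected genes in each case. Smad5 counts as above 0 although its other probe was below 0, and Smad4 lay so near 0 that it counted as above 0 with the other scalings and with normexp, which made 5 above and 5 below.

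**Figure D1:**
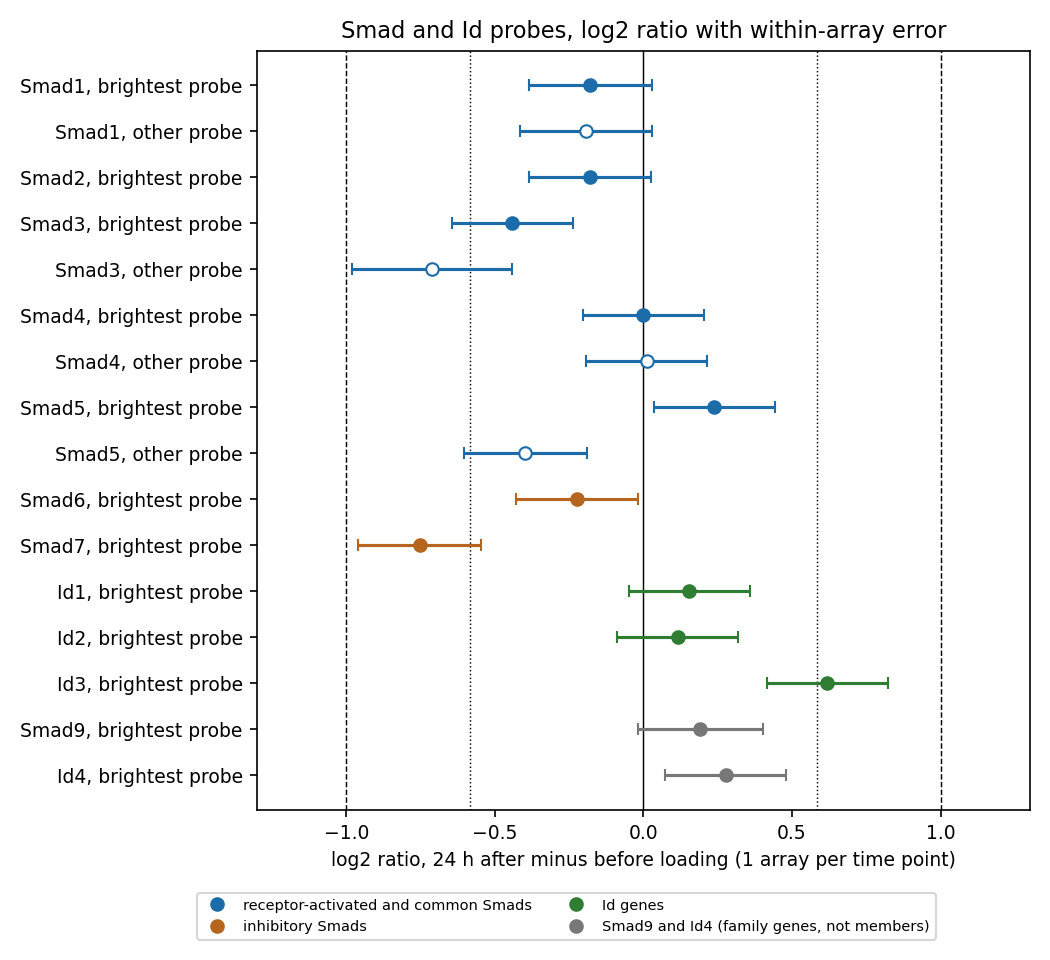
The log2 ratio of 24 h after to before loading (x axis) is shown for each probe of the 10 members and of Smad9 and Id4, with filled points for the brightest probe of a gene, open points for its other probe, and bars for 1 within-array error to each side; dotted lines mark 1.5-fold and dashed lines 2-fold. Id3 lies at 0.62 and Smad7 at -0.75, and the Smad5 probes lie on opposite sides of 0, at 0.24 and -0.40.

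Smad1 and Smad5 are the receptor-activated Smads of the BMP branch. The brightest Smad1 probe had an intensity of 296 on the first array and 261 at 24 h, a log2 ratio of -0.18 with an error of 0.21. Its other probe went from 97.4 to 85.1, a log2 ratio of -0.19. Both Smad1 probes were thus dimmer at 24 h by nearly the same ratio, within 1 error of 0. For Smad5 the probes differed in direction. The brightest Smad5 probe read 5795 before and 6829.7 at 24 h, a log2 ratio of 0.24 with an error of 0.20, and the dimmer one read 246 before and 187 at 24 h, a log2 ratio of -0.40 with an error of 0.21. The log2 ratios of the Smad5 probes lay 0.64 apart, and 9.22% of the 3633 genes with several detected probes had a range as large, the median range being 0.19. No direction is therefore given for Smad5. Smad9, the other Smad of the BMP branch and not a member, read 167 before and 190.5 at 24 h, a log2 ratio of 0.19 with an error of 0.21.

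Smad2 and Smad3 carry TGF-β and activin signals, and loss of Smad3 in mice leads to degeneration of articular cartilage. Smad2 read 1092 before loading and 963 at 24 h, a log2 ratio of -0.18 with an error of 0.20. The brightest Smad3 probe read 5412 before and 3984 at 24 h. This is 1.36-fold lower, a log2 ratio of -0.44 with an error of 0.20, and 9.38% of detected genes had a lower ratio. The other Smad3 probe was much closer to background, at 59.1 before and 36.0 at 24 h, with a log2 ratio of -0.71 and an error of 0.27. Both Smad3 probes were dimmer at 24 h by more than 2 errors in the main setting, which for the brightest probe did not hold under the 3 alternatives named above. Around the brightest Smad3 spot, 5 of 29 spots within 100 µm were lower by more than 2-fold and 2 higher by as much, but their median log2 ratio was 0.02, and Smad3 was at -0.47 when each spot had the median of its neighbours subtracted before the arrays were scaled.

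Smad4, the common partner of both branches, had the same intensity at both times within the error. Its brightest probe read 4451 before loading and 4445 at 24 h, a log2 ratio of -0.0010 with an error of 0.20, and its other probe read 2692 and 2711, a log2 ratio of 0.01. The sign of its ratio has no meaning at this size. The 5 receptor-activated and common Smads had a median log2 ratio of -0.18, with 4 of 5 below 0, or 3 of 5 under scalings that put Smad4 above 0. That median was -0.081 when arrays were scaled to their medians, -0.062 when scaled to spike-in probes and -0.095 with normexp.

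Smad6 and Smad7 are the inhibitory Smads. Smad6, which acts mainly on BMP signals, read 956 before loading and 818 at 24 h, a log2 ratio of -0.22 with an error of 0.20. Smad7, which acts on both branches and is itself induced by TGF-β, read 357 before and 212 at 24 h. Smad7 was 1.69-fold lower at 24 h, a log2 ratio of -0.75 with an error of 0.21, and 3.40% of detected genes had a lower ratio. This was the lowest ratio among the brightest probes of the members. Of 29 spots near the Smad7 spot 2 were more than 2-fold lower, and their median log2 ratio was 0.04. Each inhibitory Smad has 1 probe here, so no second probe bears on these values.

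Id1, Id2 and Id3 all lay above 0, with a median log2 ratio of 0.15 (0.27 with spike-in scaling), and stayed above 0 under every scaling tried. Id1, a direct target of BMP-activated Smads in many cells, read 7877 before loading and 8760 at 24 h, a log2 ratio of 0.15 with an error of 0.20. Id2 read 1687 before and 1826 at 24 h, a log2 ratio of 0.12 with an error of 0.20. Both were thus brighter at 24 h by less than 1 error. Id3 read 5183 before and 7955 at 24 h. Id3 was 1.54-fold higher at 24 h, a log2 ratio of 0.62 with an error of 0.20, and 3.09% of detected genes had a higher ratio. The 27 spots within 100 µm of the Id3 spot had a median log2 ratio of -0.35, with 4 of them lower by more than 2-fold and 1 higher, and Id3 was at 0.96 when each spot had the median of its neighbours subtracted before scaling. Id4, not a member, read 709 before and 859 at 24 h, a log2 ratio of 0.28 with an error of 0.20. In RNA from whole cultures, fewer cells of a type and less RNA per cell cannot be told apart, for these genes as for those that follow.

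**Figure D2:**
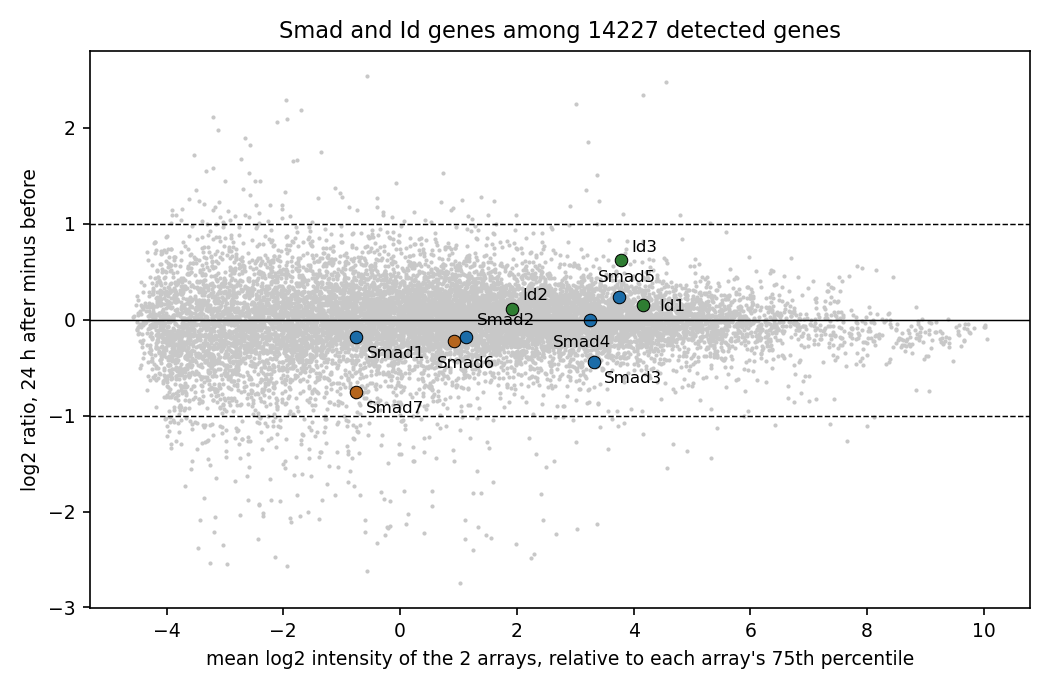
Each grey point is 1 of 14227 detected genes, with its mean log2 intensity on both arrays relative to the 75th percentile (x axis) and its log2 ratio of 24 h after to before loading (y axis); the 10 members are in colour and dashed lines mark 2-fold. All members lie between the dashed lines, from -0.75 for Smad7 to 0.62 for Id3.

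Windows of 250 bases upstream of the RefSeq transcription start were available for 6 of the 10 members, as 8 windows. They were searched on both strands for GGCGCC and CAGAC, which are known Smad-binding motifs, and for CANNTG, the E-box that E proteins bind. GGCGCC was found in 2, CAGAC in 2 and CANNTG in 3 of the 8 windows, and in 9.59%, 42.2% and 66.2% of 32851 windows over all genes. Smad5 has 3 of the 8 windows, some of them overlapping, so each motif stands for 2 of the 6 genes. The windows of Id3 and Smad3 are printed because these are the members beyond 2 within-array errors in the main setting for which a window was at hand. The Id3 window lies at chr4:136143572-136143821 on the + strand of GRCm38.p6, and the Smad3 window at chr9:63757995-63758244 on the - strand. Capitals mark CAGAC or its reverse complement:
Id3 upstream window: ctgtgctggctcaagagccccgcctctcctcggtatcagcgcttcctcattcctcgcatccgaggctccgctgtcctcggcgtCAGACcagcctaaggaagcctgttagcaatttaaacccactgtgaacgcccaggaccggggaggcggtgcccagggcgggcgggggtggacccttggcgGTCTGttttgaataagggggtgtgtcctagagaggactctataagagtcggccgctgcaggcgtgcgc
Smad3 upstream window: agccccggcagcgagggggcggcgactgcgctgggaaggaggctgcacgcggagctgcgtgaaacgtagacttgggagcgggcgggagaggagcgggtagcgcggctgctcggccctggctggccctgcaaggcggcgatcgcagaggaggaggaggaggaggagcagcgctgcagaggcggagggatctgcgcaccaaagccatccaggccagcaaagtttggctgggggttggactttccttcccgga
The Id3 window holds CAGAC at 2 places, which begin 167 and 68 bases before the start, and 11.7% of all windows hold it at 2 or more. It holds neither GGCGCC nor CANNTG. The Smad3 window holds none of the 3 motifs. A match describes letters only and shows no binding.

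Receptors, Smad partners and target genes were followed as 6 lists. Leaving out the members, the lists hold 98 genes, of which 88 were detected, with a median log2 ratio of -0.04. This median was 0.057 when arrays were scaled to their medians and 0.075 when scaled to spike-in probes. All detected genes then had medians of 0.084 and 0.10, since these scalings move all genes alike. The sign of the lists' median thus depends on the scaling. Past 2-fold, 1 was higher, Grem1, and 1 was lower, Ltbp2. Of 28 of these genes with several detected probes, 14 had probes on opposite sides of 0, and in 8 the log2 ratios were also more than 0.4 apart: Ctdsp2, Hipk2, Nedd4l, Runx1, Smurf2, Tcf4, Tgfbr1 and Tgif2. No direction is given for these 8. Past 1.5-fold, 2.27% were higher and 6.82% lower, beside the 3.66% and 5.84% of all detected genes given above.

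Of 16 type I and II receptors and co-receptors 14 were detected, and 0 were past 1.5-fold on the brightest probe. A dimmer probe of the TGF-β receptor gene Tgfbr1 read 45.5 before and 69.5 at 24 h, a log2 ratio of 0.61, where the brightest gave -0.02. The median of the list was 0.05 (0.16 with spike-in scaling, 0.095 with normexp, 0.031 with no filter on dim probes). Values ran from -0.33 for the activin receptor gene Acvr1b and -0.10 for the BMP co-receptor gene Rgma to 0.24 for Tgfbr3 and 0.26 for Acvr2b. Acvr1c and Hjv were not well above background. All 18 anchors, ubiquitin ligases and phosphatases of Smads were detected, 0 of them past 1.5-fold on the brightest probe, with a median of 0.02 (-0.0093 with normexp, 0.13 with spike-in scaling). A dimmer probe of the ubiquitin ligase gene Nedd4l read 53.2 before and 120.2 at 24 h, a log2 ratio of 1.18, where the brightest gave -0.13. The lowest were the deubiquitinase gene Usp15 at -0.37 and the ubiquitin ligase gene Wwp2 at -0.22, and the highest were Zfyve9, which encodes the receptor anchor SARA, at 0.33 and the ubiquitin ligase gene Wwp1 at 0.48 on both of its probes. Of 18 co-activators and co-repressors 17 were detected, 0 past 1.5-fold, with a median of 0.12. This median was 0.042 with normexp, 0.041 with the second brightest probe and 0.23 with spike-in scaling. On the brightest probes the values ran from -0.43 for Runx3 and -0.20 for Tgif2 to 0.46 for Ski, a co-repressor of Smads, and 0.54 for the kinase gene Hipk2. Other probes went against these for Tgif2, at 0.26 and 0.25, and for Hipk2, at -0.22, and a second Runx1 probe gave -0.44 where the brightest gave 0.32. The places of Tgif2, Hipk2 and Runx1 in the list thus depend on the probe.

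Of 18 E proteins and related helix-loop-helix factors, the class that Id proteins act on, 12 were detected, and 9 of these 12 lay below 0, where 52.4% of all detected genes did. The number was 8 with scaling to the median or the spike-in probes, with the mean over probes and with the second brightest probe. The 9 include Tcf4, which encodes an E protein and is 1 of the genes without a settled direction, with -0.05 on its brightest probe and 0.39 on its other one. The median log2 ratio of the 12 was -0.20, and -0.080 with spike-in scaling, which moves all genes alike and put all detected genes at 0.10. With normexp it was -0.10, beside -0.0030 for all detected genes. With the second brightest probe it was -0.11, beside -0.013 for all detected genes. Little therefore rests on the size of this median. Tcf3, which encodes the E protein E2A, had a log2 ratio of 0.23. The lowest were the repressor genes Bhlhe40 at -0.77 and Hes1 at -0.77, Hes1 being dim, at 45.5 before and 26.7 at 24 h. The highest was Hey1, which is also a BMP target, at 0.61. Tcf15, Hand1, Msc, Tcf21, Hey2 and Heyl were not well above background.

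The BMP-Smad targets had no common direction. Of 20 genes 18 were detected, 8 above 0 and 10 below. Without the members the median was -0.07 over 13 genes, beside -0.01 for all detected genes. It was 0.028 when arrays were scaled to their medians and 0.046 when scaled to spike-in probes. These scalings move all genes alike, and all detected genes then had medians of 0.084 and 0.10. Grem1, which encodes a secreted BMP antagonist, read 2849.8 before loading and 8125 at 24 h, a log2 ratio of 1.51 with an error of 0.20. Id3 at 0.62 was next in this list, and Smad7 at -0.75 and the osteoblast factor gene Sp7 at -0.64 were lowest. Bambi and Dlx6 were not well above background.

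The TGF-β-Smad targets were mostly lower at 24 h. All 21 were detected and 19 lay below 0, where 52.4% of all detected genes did. The 19 became 17 to 20 over the other settings tried. This list was chosen with earlier results of these data known, so its shared direction is a description and not independent support. Without Smad7, which is on this list too, 18 of 20 lay below 0 and the median log2 ratio was -0.39, beside -0.01 for all detected genes. It was nearest to 0 with quantile normalization, at -0.27. Counting Smad7, 5 of 21 were more than 1.5-fold lower (5.84% of all detected genes) and 12 of 21 were lower by more than 2 within-array errors (9.4%). Genes whose probe has several spots have smaller errors and pass the limit of 2 errors at a smaller ratio. Ltbp2, which encodes a matrix protein of the latent TGF-β binding protein family, read 3301 before and 1409 at 24 h, a log2 ratio of -1.23 with an error of 0.20. Bhlhe40 followed at -0.77. The highest were Tsc22d1 at 0.26 and Pmepa1 at 0.02. Many of these genes answer to other signals as well, and whether Smads had a part in these values was not tested.

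**Figure D3:**
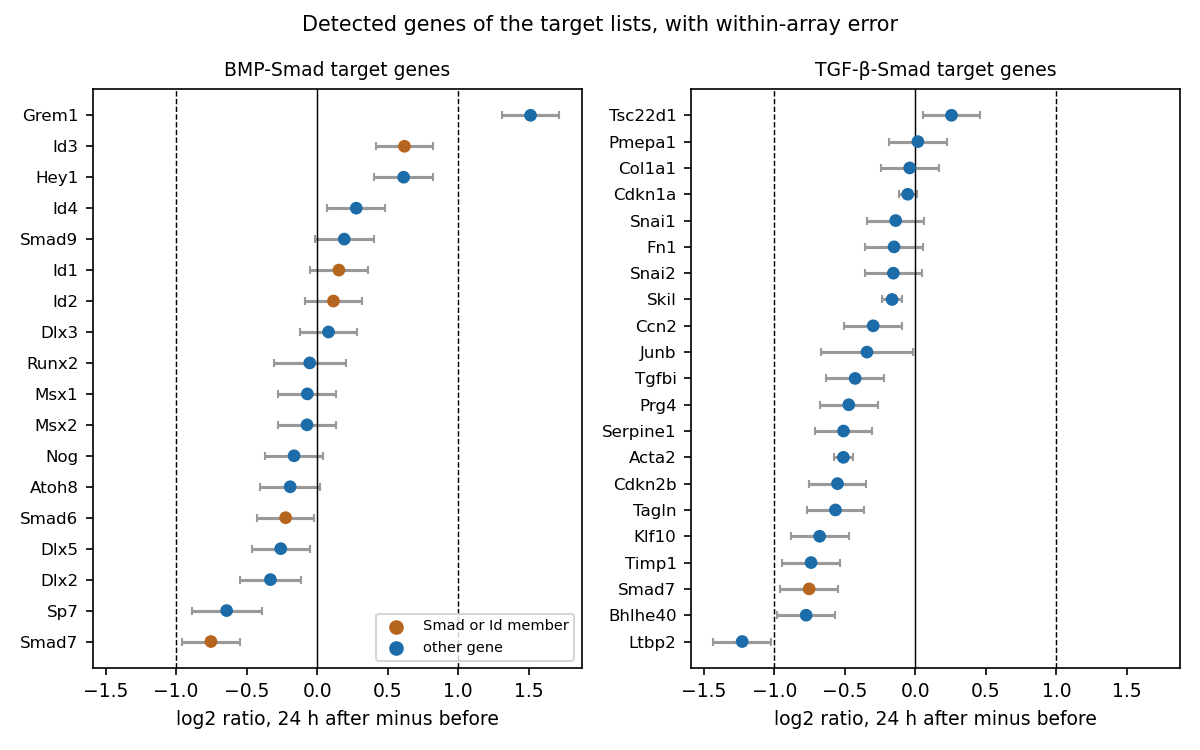
The log2 ratio of 24 h after to before loading (x axis) is shown for the detected genes of the BMP-Smad (left) and TGF-β-Smad (right) target lists, with bars for 1 within-array error to each side, which are shorter for genes whose probe has several spots; dashed lines mark 2-fold and members are in brown. On the right, 19 of 21 genes lie below 0, and on the left 10 of 18.

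Other measures differed between the arrays beside the members. All 21 proliferation genes were detected, and 14 were more than 2-fold lower at 24 h, as were 1.83% of all detected genes: Cenpa, Ccnb2, Aurka, Tpx2, Cenpe, Ccnb1, Plk1, Birc5, Aurkb, Ccna2, Bub1, Mki67, Top2a and Cdk1. Their log2 ratios ran from -2.74 for Cenpa, a centromere histone gene, and -2.45 for the cyclin gene Ccnb2 up to -1.27 for Cdk1. The others lay closer to 0, from -0.82 for Mcm5 and -0.25 for Pcna through -0.12 for Mcm2, -0.11 for Mcm6 and -0.04 for Ccnd1. The highest of the list were Mcm3 at 0.01 and Ccne1 at 0.12. The list's summed intensity was 82730.5 before and 43669.6 at 24 h, with Mcm6 the brightest, and its median log2 ratio was -1.71.

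Genes listed as markers of other cell types also differed in places. Whether chondrocytes or other cells in the culture expressed them was not tested. Of 6 adipocyte markers 5 were detected, with a summed intensity of 2495 before and 3726 at 24 h and Fabp4 the brightest. Adipoq had a log2 ratio of 2.29, Plin1 of 1.01, Lpl of 0.59 and Pparg of -0.27, and Cidec was not well above background. Of the osteoblast markers 4 were detected, all below 0, with a sum of 1251 before and 617 at 24 h and Alpl the brightest. Ibsp had a log2 ratio of -2.06, Alpl of -0.89, Sp7 of -0.64 and Phex of -0.34, Dmp1 was not well above background, and Bglap was not named on the arrays. Its near-identical copies Bglap2, at 899 before and 1219 at 24 h, and Bglap3, at 1001 and 1207, went the other way with log2 ratios of 0.44 and 0.27, so the osteoblast genes had no common direction. Whether these differences had a part in the values of the members was not tested.

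The remaining lists moved less in their sums. Endothelial markers summed to 13115 before and 12682 at 24 h, nearly all of it from 1 Kdr probe at -0.05. The other Kdr probe was not well above background, so this sum rests on a single probe. With 6 of the 10 markers not well above background, the sum does not show that endothelial cells were present. The genes Cdh5, Tek, Tie1, Flt1, Emcn and Cldn5 were not well above background, while Vwf had a log2 ratio of -0.48, Erg of -0.46 and Pecam1 of 0.23. Macrophage markers summed to 29745 and 28833, with Itgam the brightest at -0.04. Most of that sum comes from 1 Itgam probe with 25496 before loading, while the other Itgam probes read 70.4 and 49.0 and had log2 ratios of -0.36 and -0.15. All 7 named on the arrays were detected, and Ptprc, at an intensity of 20.9 before and 46.1 at 24 h, had a log2 ratio of 1.14, Lyz2 one of 0.46 and Csf1r one of -0.15, with 0.20 and 0.27 on its other probes. Skeletal muscle markers summed to 1694 and 1244 with Acta1 the brightest. Tnnt3 had a log2 ratio of -0.78 on its brightest probe and -1.004 on its other probe, just past 2-fold, Acta1 of -0.31 and Myog of -0.13, and Myod1, Myf5, Des, Ckm and Actn2 were not well above background. Erythroid markers summed to 361 and 330.0, from the near-identical genes Hba-a2 at -0.17 and Hba-a1 at -0.12, and Hbb-bs, Alas2 and Epb42 were not well above background. The part of these cell types in the values of the members was not tested.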

How the data were processed

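RNA of primary chondrocytes before and 24 h after loading was labelled with Cy3 and hybridised to 1 Agilent mouse gene expression array each. The deposited intensity of a spot is the scanner software's background-subtracted signal, and arrays were not normalized to each other. The submitters' notes name Feature Extraction 10.10.1.1. A deposited table holds the same intensity values rounded.

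Control spots and spots flagged as outliers on either array (141 before, 138 at 24 h) were left out, and spots of one probe were averaged. The deposited intensity was turned into log2 values, and the 75th percentile over the 55678 probes of each array was subtracted. Of these probes, 27229 were named through RefSeq accessions without versions (GRCm38.p6, names only). The arrays' own design used another build, so probe positions are not given. The promoter table, also RefSeq, has the same build as the names. A gene is detected when the software flags its brightest probe as well above background on each array.

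The members and lists were chosen with earlier results of these data known. Named are all members, Smad9, Id4, and of each other list the genes past 2-fold and the 2 highest and 2 lowest. Second probes of list genes, the limit of 0.4 between probes, Bglap2 and Bglap3, the values of single proliferation genes, single values of markers beyond this rule, the motifs and the printed windows were chosen after values were seen. One marker gene is not reported here and was left out of its list. With 1 array per group no test was run. The script that makes the calls was checked on simulated data. A total of 15 alternatives covered scaling, background correction, filters, the choice of probe, outlier spots, the deposited table, array position and threshold. Normexp (offset 50, on the median spot intensity because the files hold no mean) and loess (span 0.3) were run in R 4.3.3 with limma 3.58.1. All other steps used Python 3.11.15 with numpy 2.4.6, pandas 2.3.3, scipy 1.17.1 and matplotlib 3.10.9.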

Additional observations from a re-analysis of the deposited data

How the results depend on the processing

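Of 263 values recomputed under the alternatives, 255 moved by less than the within-array error or, for counts, by no more than 1.5 times, and 8 moved further. These numbers say little about stability, because part of the values could not move. Filters on dim probes leave the members as they are, and genes with 1 probe keep their ratio under other choices of probe. The within-array error also exceeds several of the ratios, so the sign changes of Smad4 and of the members' median fall within the 255. Id3 had a log2 ratio of 0.96 in place of 0.62 when the median of nearby spots was subtracted before scaling, which follows from the lower ratios around its spot. Taking the second brightest probe gave -0.71 in place of -0.44 for Smad3 and -0.40 in place of 0.24 for Smad5, and the mean over probes gave -0.080 for Smad5. At a 1.5-fold threshold 1 member was higher and 1 lower, in place of 0 and 0. With no filter on dim probes, and with a filter that needs 1 array, 2 genes of the 6 pathway lists were more than 2-fold lower in place of 1, since both settings admit dim probes.

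Over the 13 alternatives that give a ratio, Id3 ran from 0.62 to 0.96, Smad7 from -0.80 to -0.57 and Smad3 from -0.71 to -0.33. Smad4 left its side of 0 in 9 of them, being exactly 0 in the deposited table, and Smad5 in 2. The other members kept their sign. Median scaling moved the median of all genes by 0.098 and spike-in scaling by 0.12, and the members moved by the same amount. Past 2-fold 95 genes were higher and 260 lower (26.8% higher), against 130 and 205 (38.8%) when arrays were scaled to their medians and 138 and 186 (42.6%) when scaled to the spike-in probes. Normexp correction called 38 higher and 117 lower. Its offset of 50, added before log2 values were taken, by itself brings the ratios of dim probes nearer to 0. With no filter 492 were higher and 983 lower, and with the filter on 1 array 192 and 507. The cause of these shifts was not tested beyond what is said above. Spots near the lowest intensity well above background (17.3 before, 17.8 at 24 h) have large errors, which limits the dimmer probe of Smad3. No paired analysis was possible because each time point has 1 array.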
